A study of Mus musculus with 4 samples.

Results

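The cortical hem nuclei described here were selected by transcript counts in single-nucleus RNA sequencing of E16.5 mouse medial cortex. Of the 29656 nuclei with 1500 to 60000 transcripts, 255 met the rule of at least 2 transcripts of *Lmx1a*, fewer than 10 transcripts of *Ttr*, 0 of *Trp73*, 0 of *Gad1* and *Gad2* and at most 2 of *Col1a1* and *Col1a2* together. *Lmx1a* encodes a LIM homeodomain factor of the dorsal midline. The limits were directed against choroid plexus epithelium (*Ttr*), Cajal-Retzius neurons (*Trp73*), inhibitory neurons (*Gad1* and *Gad2*) and meningeal fibroblasts (the collagens). Such cells could remain where their counts met the limits. They were compared with 3448 radial glia nuclei, which held at least 2 transcripts each of *Pax6* and *Slc1a3* and 0 of *Lmx1a*. The levels of these 9 genes therefore describe the selection and were not tested.

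All 4 libraries came from mice carrying *Sst-Cre* and a tdTomato reporter, on a C57BL/6 J background per the study's methods. The 2 control libraries carried nothing further (*Sst-Cre/tdTomato*), and the 2 Dnmt1 KO libraries additionally carried floxed alleles of *Dnmt1*, the gene of DNA methyltransferase 1 (*Sst-Cre/tdTomato/Dnmt1 loxP2*). Cre was driven by *Sst* in postmitotic interneurons, so the hem nuclei were not the cells in which recombination was directed. The 0 transcripts of *Sst* counted in them follow in part from the *Gad1* and *Gad2* limit, which left out every nucleus with a transcript of either gene. In hem nuclei *Dnmt1* measured 56.5, 53.0, 47.6 and 44.9 CPM, a gene's counts in the summed nuclei brought to 1 common total. Wherever 4 values stand together, their order is Dnmt1 KO replicate 1, Dnmt1 KO replicate 2, control replicate 1, control replicate 2. Between genotypes *Dnmt1* had a log2 fold change of 0.24 ± 0.25 (SE, adjusted p = 0.948 by edgeR). These are counts over the whole gene, which do not show whether its floxed part was lost.

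The cortical hem is the strip of neuroepithelium between the hippocampal primordium and the choroid plexus. It secretes Wnt and BMP proteins and acts as the organizer of the hippocampus. Wnt proteins bind Frizzled and LRP receptors and, through beta-catenin and TCF/LEF factors, activate target genes, several of which feed back to dampen the pathway. R-spondins bind LGR receptors and amplify the signal by removing the ubiquitin ligases ZNRF3 and RNF43, and the hem also gives rise to Cajal-Retzius neurons.

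Control replicate 2 stood apart before any comparison. It was the only library of batch 2 and was made from 2 sublibraries against 8 for each of the others, and its retained nuclei held a median of 21140 transcripts against 12274 to 12401 in the other 3. Hem nuclei held medians of 13718, 14506, 14980 and 26162 transcripts, and radial glia medians of 12112, 12349, 13049 and 18723. Dnmt1 KO replicate 2 held most choroid plexus nuclei (136 of the 144 nuclei with *Lmx1a* of at least 2 and *Ttr* of at least 10). No barcode (0) was shared between any pair of libraries, and doublets were called in 12 hem nuclei, 0.0% to 5.56% of a library's, against 6.35% to 13.9% of radial glia. With doublets left out, the genes called between these populations went from 2648 to 3234. The labels do not say whether libraries came from separate animals, and the study's text describes separate mice for the libraries of a genotype.

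The selection removed more nuclei than it kept. Of 634 nuclei with at least 2 *Lmx1a* transcripts, 144 failed the *Ttr* limit, 282 the *Trp73* limit, 73 the *Gad* limit and 6 the collagen limit, and a nucleus could fail several. The 176 that failed only through *Trp73* held *Reln*, the gene of the secreted protein of Cajal-Retzius neurons, at 23927 CPM in the sum of the 4 libraries, against 858 CPM in the 255 hem nuclei. Among the 255, *Lmx1a* ranged from 2 to 102 transcripts per nucleus, with medians of 9, 12, 13.5 and 31.

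The name was then checked against 2 further markers of the hem, *Wnt8b*, a Wnt ligand of the medial cortical wall, and *Rspo2*, an R-spondin. Of the 255 nuclei, 217 (85.1%) held a transcript of either gene, 165 held both, and 38 held neither. *Rspo2* was detected in 74.2%, 79.6%, 69.4% and 84.2% of hem nuclei, against 1.15% to 2.69% of radial glia. Excitatory neurons, taken as nuclei with at least 2 *Neurod6* transcripts, held *Rspo2* in 3.03% to 9.06%, at medians of 15006 to 25045 transcripts. Their share was above that of radial glia in each library. *Wnt8b* was detected in 63.9% to 79.4% of hem nuclei, in 1.80% to 9.35% of radial glia and in 0.293% to 1.34% of excitatory neurons. After each nucleus was thinned to 5000 transcripts the shares were 69.4% to 82.4% for *Rspo2* and 49.5% to 64.7% for *Wnt8b* in hem nuclei, and at most 0.898% and 4.22% in radial glia. *Slc1a3*, the glial glutamate transporter of radial glia, was present in 225 (88.2%) hem nuclei, and 15 held at least 2 transcripts of *Neurod6*. The 9 listed genes of other *Lmx1a* domains of the brain summed to 7.48, 11.9, 3.07 and 15.0 CPM in hem nuclei, and 34 of the 255 held at least 1 transcript of them. Their sums in radial glia were 14.4 to 19.7 CPM, and *Foxa2*, a floor plate gene of the list, was at 0 in all 4 hem sums.

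The comparison of hem with radial glia asked which genes set hem nuclei apart from the neighbouring cortical progenitors. The hem rule asked for neither *Pax6* nor *Slc1a3*, and 37.1%, 22.3%, 25.0% and 31.6% of hem nuclei met the radial glia limits on both. Transcripts were summed per library and population, and of 13862 genes tested 1496 were higher (10.8%) and 1152 lower (8.31%) in hem nuclei at an adjusted p under 0.05, by edgeR's quasi-likelihood test with the library as a block. The direction was the same in all 4 libraries for 2507 of these 2648 genes. The median log2 fold change of all tested genes was -0.04, the value against which each list's median is read. The counts of each list are read against the 10.8% and 8.31%. Leaving out Dnmt1 KO replicate 1 or 2 lowered the count of called genes to 1660 and 1683, and the control libraries alone gave 1062.

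Wnt ligands and R-spondins were higher in hem nuclei as a list: 9 of 11 tested members rose, 1 fell, and the median log2 fold change was 5.80. Genes too low in both populations were left out before testing, so members near 0 in radial glia entered through their hem levels alone. Over all 23 listed genes, tested or not, the summed level had a mean of 5439 CPM in hem nuclei and 245 CPM in radial glia. Of the 21788 transcripts of the list in hem nuclei, *Rspo2* held 12904 and *Rspo3* 4641. *Wnt3a*, the canonical ligand of the hem, measured 126, 127, 109 and 154 CPM in the hem nuclei. All radial glia together held 2 *Wnt3a* transcripts, and the ratio of the pooled levels was 3593 (95% counting interval 990 to 29744). The log2 fold change was 11.43 ± 0.29 (SE, with an edgeR adjusted p of 5.14e-07).

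*Rspo2* measured 2724, 3017, 2511 and 4699 CPM in hem nuclei and 0.999, 5.48, 1.48 and 2.00 CPM in radial glia of the same libraries, a log2 fold change of 10.58 ± 0.43 (edgeR adjusted p = 2.01e-06). *Rspo1*, another R-spondin, measured 101 to 188 CPM in hem nuclei and at most 1.50 CPM in radial glia, and *Rspo3* 938 to 1719 against 26.6 to 37.5 CPM. All 3 R-spondins thus lay higher in hem nuclei than in radial glia in every library. *Rspo3* was not limited to hem nuclei, since 46.0% to 51.3% of *Neurod6* nuclei (excitatory neurons) held a transcript of it, against 81.4% to 88.3% of hem nuclei. *Wnt8b* measured 307, 250, 207 and 438 CPM in hem nuclei against 15.6, 5.71, 3.89 and 1.93 CPM in radial glia, with a log2 fold change of 5.80 ± 0.47 (edgeR adjusted p = 6.5e-05). The radial glia of both Dnmt1 KO libraries thus lay above those of the controls for this gene, whereas the hem values overlapped between genotypes.

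*Wnt9a* (log2 fold change 7.57), *Wnt2b* (5.95), *Wnt5a* (3.53) and *Wnt7b* (0.88) were the other ligands called higher. *Wnt7a*, a ligand of cortical radial glia, fell by 2.11 on the log2 scale, from 67.3 to 97.4 CPM in radial glia to 7.15 to 29.9 CPM in hem nuclei. *Wnt5b* did not pass the test (log2 fold change -0.23 ± 0.19, edgeR adjusted p = 0.467). The remaining 12 ligands of the list were too low to be tested. The plot of 14 genes by library shows these separations.

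**Figure D1:**
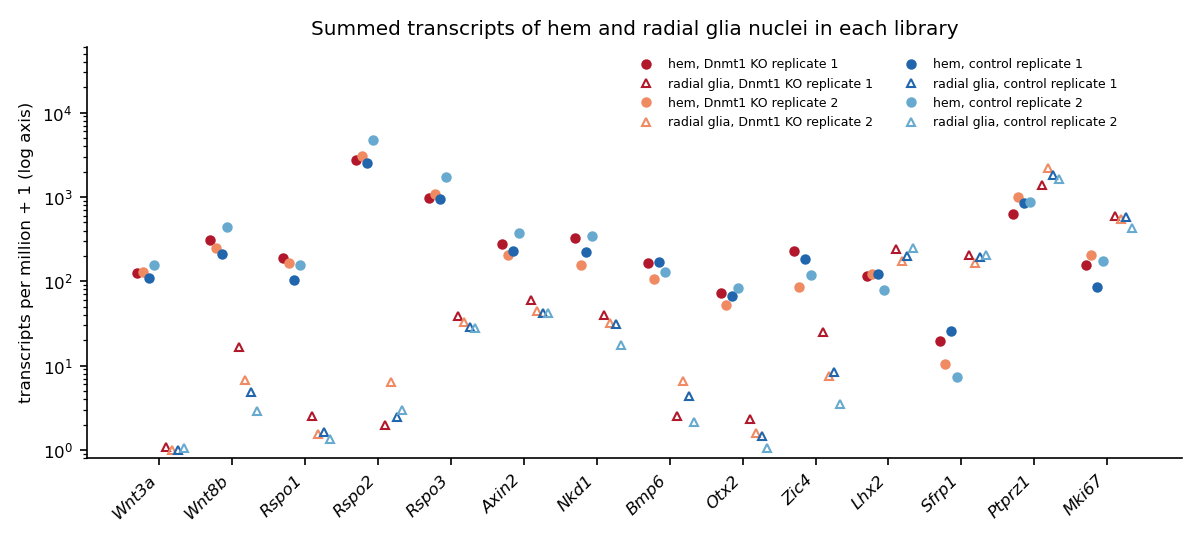
Levels of 14 genes in hem nuclei (filled circles) and radial glia nuclei (open triangles) in each of the 4 libraries, in CPM of the summed nuclei plus 1 on a log axis. The Wnt, R-spondin, feedback, *Bmp6*, *Otx2* and *Zic4* circles lie above the triangles of every library, and the *Lhx2*, *Sfrp1*, *Ptprz1* and *Mki67* circles lie below the triangles of the same library, with *Rspo2* between 2511 and 4699 CPM in hem nuclei.

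On the receiving side, 8 of 18 tested Wnt receptors and their regulators rose and 3 fell, with a median log2 fold change of 0.48. Of all tested genes 10.8% rose and 8.31% fell. *Lgr4*, an R-spondin receptor, measured 61.9, 39.3, 90.5 and 44.9 CPM in hem nuclei against 10.4 to 19.2 CPM in radial glia (log2 fold change 2.08), and *Lgr6*, another such receptor, was low in both (3.07 to 8.94 against 1.46 to 2.50 CPM). *Znrf3* and *Rnf43*, the ligases that R-spondins remove, rose by log2 fold changes of 0.78 and 1.02. *Ror1*, a receptor of Wnt5a, rose from 6.53 to 34.8 CPM in radial glia to 128 to 235 CPM in hem nuclei. Of the Frizzled genes, *Fzd3*, *Fzd6* and *Fzd10* rose whereas *Fzd2* and *Fzd8* fell. *Fzd10* rested on 27 hem and 1 radial glia transcripts, a ratio of 359 with a counting interval of 59.1 to 14683. *Lrp5*, a co-receptor, fell by 0.67 on the log2 scale.

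Among the intracellular effectors and feedback genes of the pathway, 8 of 18 tested members rose and 3 fell, with a median log2 fold change of 0.17. *Axin2*, a feedback inhibitor widely used as a readout of Wnt signalling, measured 277, 201, 230 and 372 CPM in hem nuclei and 58.5, 43.4, 41.3 and 41.5 CPM in radial glia (log2 fold change 2.65 ± 0.17, edgeR adjusted p = 1.81e-05). The lowest hem value was above the highest radial glia value. *Nkd1*, which inhibits Dishevelled, rose by a log2 fold change of 3.27, *Apcdd1*, a membrane inhibitor of the pathway, by 2.72, *Tcf7* by 3.15, *Lef1* by 0.71, *Dkk3* by 1.85, *Wif1* by 2.74 and *Sp5* by 3.67. *Tcf7*, *Lef1* and *Tcf7l2* encode TCF/LEF factors, and *Tcf7l2* fell by 1.01. *Sfrp1*, a secreted Wnt antagonist of the cortical ventricular zone, fell by 3.55, from 162 to 206 CPM in radial glia to 18.4, 9.53, 24.6 and 6.41 CPM in hem nuclei. *Ctnnb1*, encoding beta-catenin, fell by 0.45.

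TCF/LEF factors bind a core of 6 letters, CTTTGA. It was searched on both strands of RefSeq promoter windows (GRCm38.p6, 250 bases before to 50 after a start), and 16.0% of all 32851 windows held it. Of the 8 effector and feedback genes called higher in hem nuclei, 6 had a window, and *Lef1* and *Sp5* held the motif. Of the 9 ligands and R-spondins called higher, 5 had a window and 0 held it. *Lef1* had 4 windows, of which 1 matched, and a gene with several starts has more windows that could match. The 2 windows are printed because, of the 6 genes with a window, these held a match, in lower case with the motif or its reverse complement in capitals. The *Sp5* window lies on the plus strand at chr2:70474673-70474972 and the *Lef1* window on the plus strand at chr3:131156044-131156343. A match describes the letters and was not tested for binding.
Sp5: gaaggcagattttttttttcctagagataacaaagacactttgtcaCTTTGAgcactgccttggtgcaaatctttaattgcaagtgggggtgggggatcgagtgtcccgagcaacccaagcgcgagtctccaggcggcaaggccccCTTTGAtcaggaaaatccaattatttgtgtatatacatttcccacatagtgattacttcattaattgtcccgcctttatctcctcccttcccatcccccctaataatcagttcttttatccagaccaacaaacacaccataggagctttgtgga
Lef1: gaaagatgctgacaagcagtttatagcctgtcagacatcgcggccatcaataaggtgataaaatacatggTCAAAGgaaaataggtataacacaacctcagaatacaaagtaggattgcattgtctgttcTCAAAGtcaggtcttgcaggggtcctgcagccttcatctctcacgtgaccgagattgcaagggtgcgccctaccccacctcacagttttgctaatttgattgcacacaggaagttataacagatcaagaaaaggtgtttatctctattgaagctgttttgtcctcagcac

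BMP signalling is the other secreted pathway of the midline, in which ligands bind serine/threonine kinase receptors that activate Smad proteins. Of 3 BMP ligands tested, *Bmp6* and *Bmp7* rose and *Bmp3* did not pass. The other listed ligands, among them *Bmp2*, *Bmp4*, *Bmp5* and *Gdf7*, were too low to be tested. *Bmp6* measured 163, 107, 167 and 128 CPM in hem nuclei and 1.13 to 5.66 CPM in radial glia (log2 fold change 5.77 ± 0.41, edgeR adjusted p = 3.06e-05). *Bmp7* measured 56.0 to 73.7 against 6.13 to 17.7 CPM. Of 10 receptors and Smads, *Smad9*, an effector of the pathway, rose from at most 0.893 CPM to 4.60 to 11.9 CPM, and the receptors *Bmpr2* and *Acvr2b* fell by 0.51 and 0.88. Of 13 targets and inhibitors, *Id3* and *Msx1*, both BMP-responsive transcriptional regulators, rose by log2 fold changes of 2.95 and 5.07, and *Bmper*, a secreted BMP modulator, fell by 2.93. *Msx1* rested on 25 hem transcripts. The median log2 fold change was -0.03 for receptors and Smads and 0.11 for targets and inhibitors. Of all tested genes 10.8% were called higher in hem nuclei. The summed targets and inhibitors had a mean of 369 CPM in hem nuclei and 722 CPM in radial glia.

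Dorsal midline transcription factors separated the populations as well, with 8 of 12 tested members higher, 2 lower and a median log2 fold change of 1.91. *Otx2*, a homeobox gene of the dorsal midline and choroid plexus, measured 70.7, 51.8, 66.0 and 83.3 CPM in hem nuclei and 0.0666 to 1.33 CPM in radial glia (log2 fold change 6.92 ± 0.42, edgeR adjusted p = 1.5e-05). Its antisense neighbour *Otx2os1* rose by 7.07, and the pair overlap on chromosome 14, so that without a stated strand their reads cannot be told apart. The zinc finger genes *Zic1* to *Zic5*, which mark dorsal midline tissue, rose by log2 fold changes of 3.23, 2.35, 3.48, 4.27 and 2.71. *Zic1* and *Zic4* overlap on chromosome 9 and their reads may be shared. *Dmrt3*, of the medial cortex, and *Rfx4*, a regulator of cilia and dorsal midline patterning, rose by 1.48 and 1.10. *Gli3*, a hedgehog pathway factor needed to form the hem, fell by 0.79, with 654 to 912 CPM in hem nuclei against 1466 to 1679 CPM in radial glia.

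Cortical selector genes were lower or did not pass the test, with 0 of 10 higher and 4 lower. *Lhx2*, the cortical identity gene that opposes hem fate, measured 114, 122, 121 and 76.9 CPM in hem nuclei against 240, 175, 200 and 244 CPM in radial glia (log2 fold change -0.82 ± 0.17, edgeR adjusted p = 0.0105). Every hem value was below every radial glia value. *Nr2f1*, an areal patterning gene, fell by 0.84 and *Bcl11a*, a neuronal zinc finger gene, by 1.06. *Emx1* and *Emx2*, genes of the dorsal telencephalon, showed log2 fold changes of 0.09 and 0.19 and did not pass (edgeR adjusted p = 0.802 and 0.587).

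Of 20 radial glia genes, 8 were lower in hem nuclei, 1 was higher and 11 did not pass. *Ptprz1*, a receptor phosphatase of radial glia, measured 628, 992, 841 and 865 CPM in hem nuclei against 1370, 2225, 1839 and 1633 CPM in radial glia, a log2 fold change of -0.95 ± 0.10 (edgeR adjusted p = 0.000276). *Nes*, encoding nestin, fell by 1.18, *Gli2* by 1.43 and *Ddah1* by 1.41. *Hopx*, a homeodomain-only gene of medial progenitors, was the member that rose, from 9.65 to 32.2 CPM to 73.7 to 137 CPM (log2 fold change 2.74). *Sox2*, a neural progenitor factor, and *Fabp7*, a radial glia lipid-binding gene, showed log2 fold changes of -0.16 and 0.30 and did not pass (edgeR adjusted p = 0.616 and 0.279).

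Of the Notch pathway, 1 of 15 tested genes rose and 3 fell, with a median log2 fold change of -0.28. Over all tested genes 10.8% rose and 8.31% fell. The ligand *Jag1* fell by 3.46 and the receptor *Notch1* by 0.91. Of the FGF pathway, 4 of 15 rose and 3 fell, with a median of 0.47. Among them the feedback inhibitor *Spry1* rose by 3.88 and the receptor *Fgfr3* fell by 1.95.

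Proliferation genes were lower in hem nuclei than in radial glia, which alone were selected by *Pax6* and *Slc1a3*. The part of these unlike rules in the difference was not tested. All 21 G2/M genes fell, with a median log2 fold change of -1.69, and 14 of 21 S-phase genes fell with a median of -0.93 and 0 rose. *Mki67*, a marker of cycling cells, measured 154, 204, 84.4 and 175 CPM in hem nuclei against 593, 546, 573 and 427 CPM in radial glia (log2 fold change -1.69 ± 0.22, edgeR adjusted p = 0.000824). At least 10 G2/M transcripts were held by 16, 23, 6 and 3 hem nuclei, between 15.8% and 22.3% of a library's, and by 51.5% to 55.4% of radial glia. The 26 hem nuclei richest in G2/M transcripts held 78.3% of them, so the summed level rested on few nuclei. After thinning to 5000 transcripts, at least 5 G2/M transcripts were held by 11.1% to 18.8% of hem nuclei and 45.9% to 55.3% of radial glia.

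**Figure D2:**
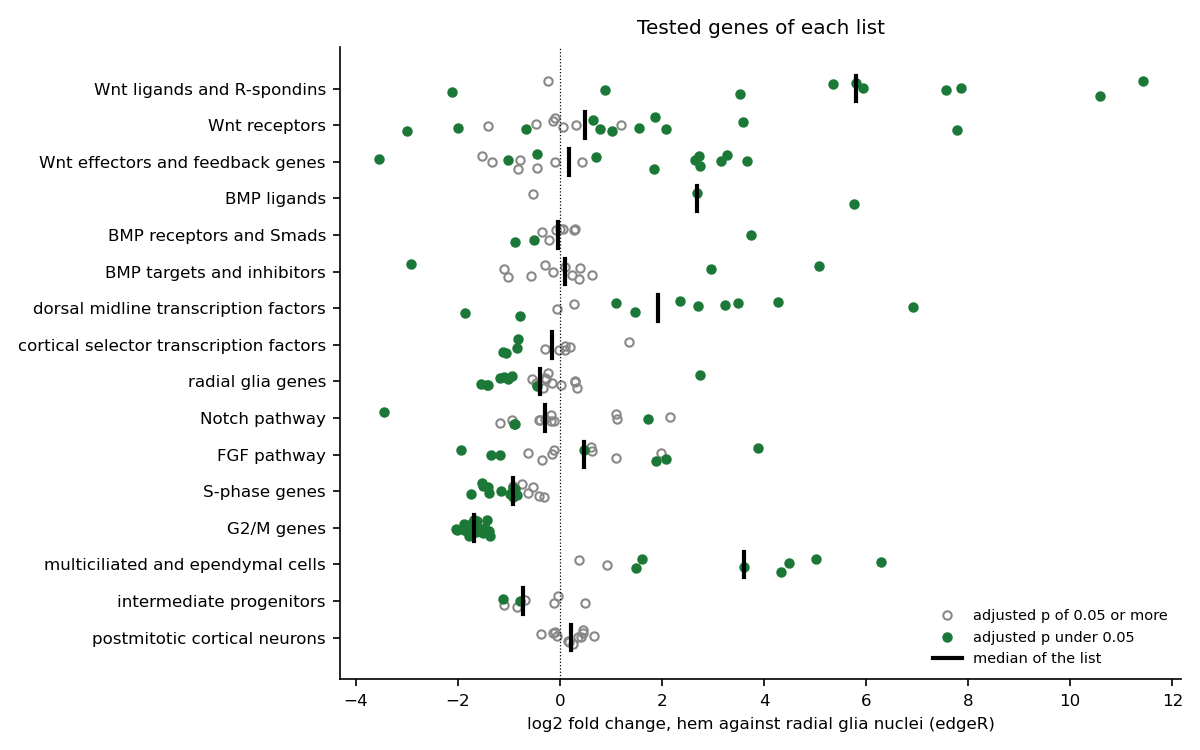
Log2 fold change of hem against radial glia nuclei for each tested gene of 16 lists, on the horizontal axis, with filled points at an adjusted p under 0.05 and a black bar at each list's median. Wnt ligands and R-spondins reach 11.43 around a median of 5.80, and all 21 G2/M genes lie below 0.

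The 12 genes with the largest increases and the 12 with the largest decreases among abundant genes were taken by a fixed rule. Beside *Wnt3a*, *Rspo2*, *Rspo1*, *Wnt9a*, *Otx2* and *Otx2os1*, the increases comprised *Best3*, *Rbm47*, *Zfp804b*, *Sulf1*, *Jhy* and *Cnmd*. *Sulf1*, a sulfatase that edits heparan sulfate and thereby Wnt and FGF signalling, measured 181, 366, 620 and 677 CPM in hem nuclei against 1.17 to 8.51 CPM in radial glia (log2 fold change 7.10). *Cnmd*, encoding chondromodulin, measured 111 to 169 against 0.698 to 2.16 CPM (log2 fold change 6.57), and *Rbm47*, an RNA-binding protein gene, 78.3 to 179 against at most 1.19 CPM (log2 fold change 8.10). *Zfp804b*, a zinc finger gene, measured 1792 to 5916 against 10.5 to 21.3 CPM. *Best3*, a bestrophin channel gene, rested on 65 hem and 2 radial glia transcripts, a ratio of 432 with a counting interval of 115 to 3640.

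The decreases comprised *Sfrp1* and *Jag1*, described above, and *Dlx6os1*, *Sox1ot*, *Thsd4*, *Erg*, *Cntnap5c*, *Alk*, *Eva1c*, *Lpar1*, *Hmga2* and *Lipg*, with log2 fold changes of -4.60 to -3.19. *Hmga2*, a chromatin protein gene of fetal progenitors, measured 6.12, 11.3, 7.67 and 8.54 CPM in hem nuclei against 71.8 to 115 CPM in radial glia. *Lpar1*, a lysophosphatidic acid receptor of the ventricular zone, fell from 163 to 220 CPM to 4.08 to 36.8 CPM. *Dlx6os1*, an RNA of inhibitory neurons, depended on the selection. With the *Ttr*, *Trp73*, *Gad* and collagen limits applied together to radial glia its log2 fold change was -0.29 and that of *Cntnap5c* -0.77, and neither passed, while the other 10 decreases kept their call.

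Markers of neighbouring cell types were read beside these results, where 10.8% of all tested genes were called higher and 8.31% lower. Listed genes near 0 in radial glia entered the test through their hem levels alone. Of 7 choroid plexus genes tested, 5 rose, and the summed level of the 16 listed was 95.9 to 113 CPM in hem nuclei, 17.9 to 28.9 CPM in radial glia and 10526 CPM in the *Ttr*-rich *Lmx1a* nuclei. Signalling genes were also present in those *Ttr*-rich nuclei. Wnt ligands and R-spondins summed to 1914 CPM there against a mean of 5439 in the hem sums, where *Rspo2* held most of the transcripts. Wnt receptors summed to 2250 against 1521 and BMP ligands to 451 against 213 CPM. These sums were compared without a test. *Htr2c*, a serotonin receptor of the choroid plexus, measured 42.8, 17.9, 53.7 and 0 CPM in hem nuclei and was held by 21 of the 255. *Folr1*, another listed gene, rested on 34 transcripts in 26 hem nuclei. Of 6 Cajal-Retzius genes tested, 3 rose, among them *Reln*, at 830, 871, 945 and 780 CPM in hem nuclei against 51.5 to 95.6 CPM in radial glia (log2 fold change 3.78). The 26 hem nuclei richest in *Reln* held 74.9% of its transcripts, and at least 10 were held by 19, 25, 8 and 6 hem nuclei. *Ebf2* and *Ebf3*, factors of Cajal-Retzius neurons, did not pass, and *Ebf2* was at 0 in 2 hem sums and at 85.4 CPM in that of control replicate 2.

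Multiciliated and ependymal genes were higher in hem nuclei, with 7 of 9 tested members rising, 0 falling and a median log2 fold change of 3.61. Of all tested genes 10.8% rose, and the limit on genes near 0 in radial glia held here too. *Dnah9* and *Dnah11*, axonemal dynein genes, measured 180 to 340 and 64.5 to 175 CPM in hem nuclei against 4.58 to 10.6 and 0.500 to 2.32 CPM in radial glia, and *Rfx3*, a ciliogenic factor, rose by a log2 fold change of 1.61. *Foxj1*, the defining factor of motile cilia, was too low to be tested (1.36 to 6.41 CPM), as were *Ccno*, *Gmnc*, *Mcidas*, *Rsph1* and *Tmem212*. The sum of all listed members was 1974 to 2687 CPM in hem nuclei, 613 to 705 CPM in radial glia and 8450 CPM in the *Ttr*-rich nuclei. *Kdr*, a VEGF receptor listed with endothelial cells, measured 78.9, 97.7, 137 and 273 CPM in hem nuclei (log2 fold change 5.02), while *Pecam1*, another endothelial gene, had a log2 fold change of -0.18 and did not pass and *Flt1* fell. Of 12 genes of postmitotic cortical neurons 0 passed, at summed levels of 1536 to 2724 CPM in hem nuclei and 1374 to 2330 CPM in radial glia. Of 8 intermediate progenitor genes 2 fell and 0 rose, and *Eomes*, their defining factor, had a log2 fold change of -0.11. Microglia and oligodendrocyte precursor genes had 0 calls. Of 3 meningeal genes tested 1 rose, *Colec12*, and all 4 interneuron genes tested fell, where the *Gad* limit held for hem nuclei alone.

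The rule's threshold was then examined by the number of *Lmx1a* transcripts per nucleus, with levels summed over the 4 libraries and given without a test. The 177 nuclei with 1 *Lmx1a* transcript that met the other limits lay just outside, and the 39 with 2 just inside. *Rspo2* measured 82.1 CPM at 1 transcript, 149 at 2, 1144 at 3 to 9 and 4693 at 10 or more, and *Wnt8b* 12.2, 91.2, 134 and 407 CPM. *Wnt3a* measured 1.66, 2.94, 36.0 and 203 CPM and *Bmp6* 1.94, 4.41, 25.5 and 227 CPM. The nuclei just inside thus lay nearer to those just outside than to the 143 members with at least 10 transcripts for *Rspo2*, *Wnt3a* and *Bmp6*.

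*Sfrp1* went the other way, from 50.8 CPM at 1 transcript to 38.2, 20.2 and 5.30 CPM. *Lhx2* measured 160, 194, 218 and 43.7 CPM and was low only in the nuclei with the most *Lmx1a*. *Reln* and *Mki67* were highest at 3 to 9 transcripts (1650 and 229 CPM). Depth differed along the *Lmx1a* count in control replicate 2, whose nuclei held a median of 31552 transcripts at 1 *Lmx1a* transcript, 15892 at 2 (3 nuclei) and 27578 at 10 or more (12 nuclei). In Dnmt1 KO replicate 1 these medians were 15127, 13189 and 13656, and in Dnmt1 KO replicate 2 they were 16134, 16662 and 13894. In control replicate 1 they were 15881, 11341.5 (8 nuclei) and 16245.5.

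**Figure D3:**
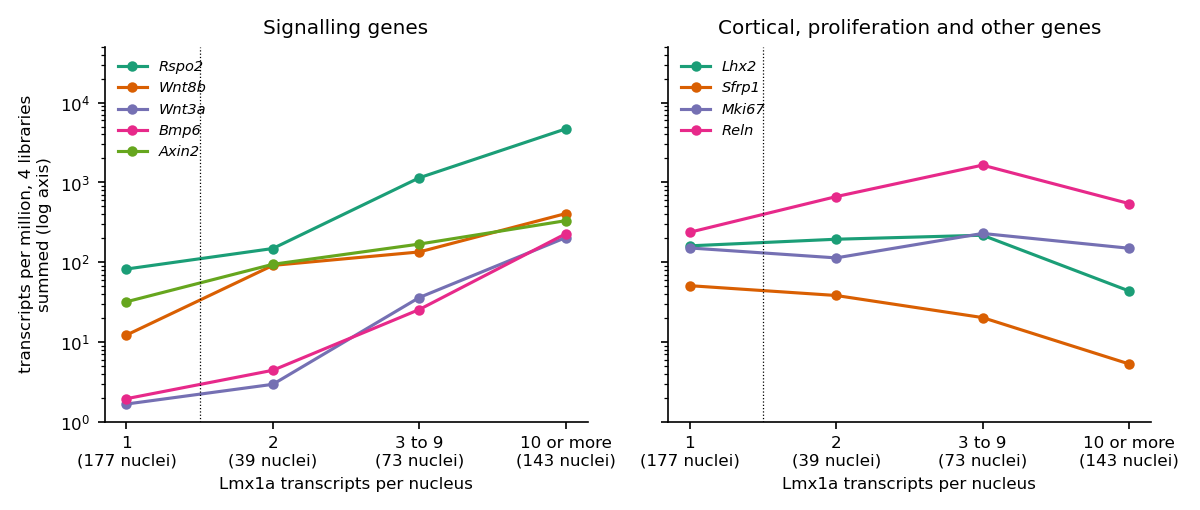
Levels in CPM (log axis), summed over the 4 libraries, of nuclei that met the other limits, by *Lmx1a* transcripts per nucleus on the horizontal axis, with the dotted line at the threshold. *Rspo2* climbs from 82.1 to 4693 CPM and *Wnt3a* from 1.66 to 203 CPM, while *Sfrp1* declines from 50.8 to 5.30 CPM.

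Hem nuclei were more frequent in the Dnmt1 KO libraries than in the controls. They numbered 97 of 5640, 103 of 12064, 36 of 7047 and 19 of 4905 retained nuclei. These were 1.72% (95% exact binomial interval 1.40 to 2.09), 0.854% (0.697 to 1.03), 0.511% (0.358 to 0.707) and 0.387% (0.233 to 0.604), where intervals cover counting error only. Both Dnmt1 KO values lay above both controls, with means of 1.29% ± 0.612 and 0.449% ± 0.0873 (SD, n = 2 each) and a difference of 0.838 percentage points. That difference shrank to 0.405 points when Dnmt1 KO replicate 1 was left out and grew to 1.27 points when Dnmt1 KO replicate 2 was. The intervals of Dnmt1 KO replicate 2 and control replicate 1 overlapped. In shares of a dissected tissue, more hem nuclei and fewer nuclei of other types cannot be told apart. The exact permutation test (two-sided, 2 against 2) gave p = 0.333, the smallest value this design allows, so the difference could not pass a threshold of 0.05.

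Of hem and radial glia nuclei together, hem nuclei made up 10.1%, 8.33%, 4.41% and 2.77%, with means of 9.20% ± 1.23 and 3.59% ± 1.16 (SD, n = 2; exact permutation p = 0.333). Within batch 1, which held 3 of the 4 libraries, the differences were 0.776 and 4.80 percentage points for the shares of retained nuclei and of hem and radial glia nuclei. After thinning, with at least 1 *Lmx1a* transcript required, radial glia numbered 373, 504, 347 and 239 against 866, 1133, 781 and 668 before, and the hem shares were 20.5%, 22.8%, 12.2% and 10.2%. The ratio of the genotype means was 2.57 as first counted, 1.80 with at least 1 *Lmx1a* transcript and no thinning, and 1.94 with both changes. At least 50 transcripts of the neuron list were held by 15 of 97, 23 of 103, 12 of 36 and 5 of 19 hem nuclei, a larger part in the controls. This cut was on raw transcripts without thinning. Hem nuclei of control replicate 2 were deeper, at a median of 26162 transcripts against 13718 to 14980. The summed neuron list overlapped between genotypes, at 1536, 2156, 2724 and 1920 CPM.

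Other genes of medial tissue were read beside this share. Radial glia held *Rmst*, a long RNA of midline progenitors named after its values were seen, at 1479, 1034, 552 and 408 CPM, and *Zic1* at 26.6, 10.9, 9.64 and 4.59 CPM, with both Dnmt1 KO libraries above both controls. The share of all radial glia genes lying so was not counted, and in hem nuclei it was 17.8% of 8992 genes. The summed lists in radial glia overlapped between genotypes, at 1897, 1942, 1974 and 1741 CPM for dorsal midline factors and 279, 230, 229 and 239 CPM for Wnt ligands and R-spondins. Nuclei with *Trp73* were 2.46%, 3.05%, 1.50% and 2.77% of the libraries, and those with at least 10 *Ttr* transcripts 0.0355%, 1.16%, 0.0426% and 0.0612%, so that both overlapped between genotypes. Their part in the difference was not tested.

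**Figure D4:**
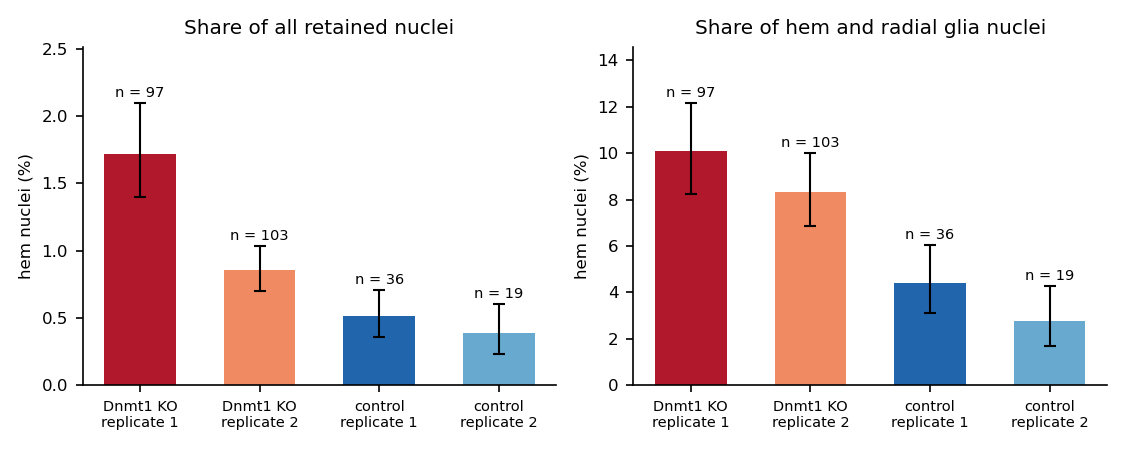
Hem nuclei as a percentage of retained nuclei (left) and of hem and radial glia nuclei (right) in each library, as bars from 0 with 95% exact binomial intervals and the number of hem nuclei above each. Both Dnmt1 KO bars (1.72% and 0.854% on the left) stand above both control bars (0.511% and 0.387%).

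The comparison of genotypes within hem nuclei tested 8992 genes on the summed counts of 2 against 2 libraries. At an adjusted p under 0.05 edgeR called 0 (0.0%) and DESeq2 called 1, *Adamtsl1*, and 433 (4.82%) had an unadjusted edgeR p under 0.05. The smallest adjusted p was 0.920. The count rested on single libraries: it became 504 on leaving out control replicate 1, 249 on leaving out control replicate 2, 2 on leaving out Dnmt1 KO replicate 1 and 0 on leaving out Dnmt1 KO replicate 2, where the lone library left in a group was assumed to vary like the others. Both Dnmt1 KO libraries lay above both controls for 17.8% of the genes and below both for 17.6%. The control sums rested on 36 and 19 nuclei.

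The signalling genes that separated hem nuclei from radial glia had 0 calls between genotypes. *Wnt3a* had a Dnmt1 KO to control log2 fold change of -0.05 ± 0.24 (SE), *Wnt8b* of -0.20 ± 0.36, *Rspo2* of -0.32 ± 0.35 and *Axin2* of -0.33 ± 0.30, and each overlapped between the genotypes. *Rspo1* was higher in both Dnmt1 KO libraries (188, 166, 101 and 156 CPM) with a log2 fold change of 0.47 ± 0.26. Of the 11 ligands and R-spondins tested 1 lay above the controls in both Dnmt1 KO libraries and 0 below, with a median log2 fold change of -0.32. Over all 8992 genes 17.8% lay above and 17.6% below. *Bmp6* and *Bmp7* had log2 fold changes of -0.14 ± 0.28 and -0.30 ± 0.23. Of 12 dorsal midline factors 7 were positive and 5 negative, with a median of 0.04, and *Otx2* had a log2 fold change of -0.28 ± 0.27. All of these had an edgeR adjusted p of 0.920 or more. *Sulf1* was lower in both Dnmt1 KO libraries (181, 366, 620 and 677 CPM, log2 fold change -1.24 ± 0.35, edgeR adjusted p = 0.920). It passed when either control was left out and without the low-count filter.

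G2/M genes had the largest median of the lists with at least 5 genes tested, and are described for that reason. All 18 tested members had positive log2 fold changes, with a median of 1.02 against -0.01 for all 8992 genes. Of the 18, 5 had an unadjusted edgeR p under 0.05 and 0 passed adjustment. Both Dnmt1 KO libraries lay above both controls for 11 of the 18, against 17.8% of all 8992 genes. *Nusap1*, a spindle protein gene, measured 36.7, 41.1, 6.14 and 17.1 CPM (log2 fold change 1.82 ± 0.47, edgeR adjusted p = 0.920). The summed list measured 1043, 1217, 304 and 942 CPM, so that control replicate 1 stood lowest. The S-phase list did not show this, with 11 of 17 tested members positive, a median of 0.15 and 0 at an unadjusted edgeR p under 0.05. Its sum measured 617, 676, 646 and 519 CPM in hem nuclei and overlapped between genotypes. The share of hem nuclei with at least 10 G2/M transcripts, given above, overlapped between the genotypes, and in control replicate 1 it counted 6 nuclei. In radial glia the summed list was also higher with Dnmt1 KO, at 3490, 3309, 2755 and 2563 CPM.

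**Figure D5:**
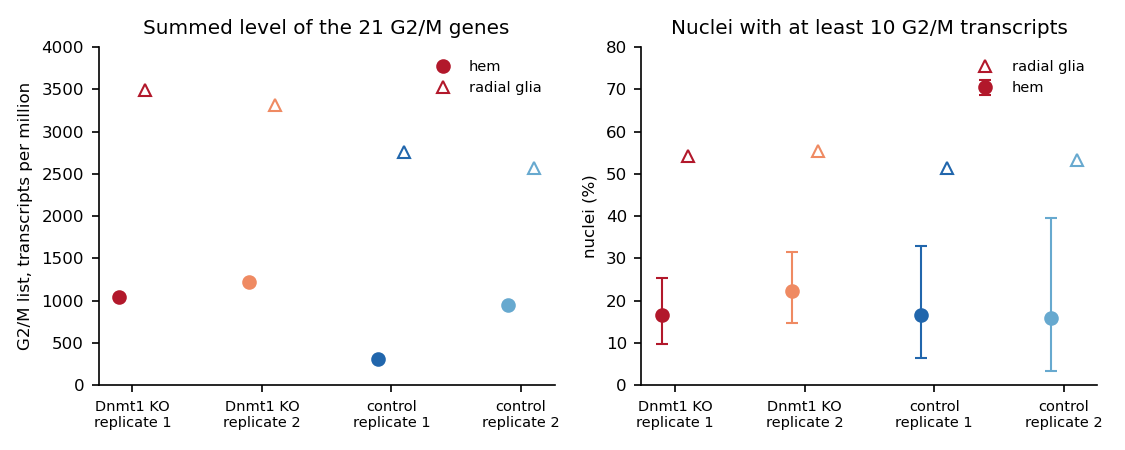
Summed level of the 21 G2/M genes in CPM (left) and percentage of nuclei with at least 10 G2/M transcripts (right) in each library, for hem nuclei (circles, with 95% exact binomial intervals on the right) and radial glia (triangles). Control replicate 1 lies lowest for the hem level (304 CPM), while the hem percentages lie between 15.8% and 22.3%.

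The gene with the smallest unadjusted p, named after its values were seen, was *Adamtsl1*, an extracellular matrix gene, at 146, 145, 23.0 and 38.4 CPM (log2 fold change 2.27 ± 0.29, edgeR adjusted p = 0.920). The mitochondrial ribosomal RNA *mt-Rnr2*, also chosen after its values were seen, measured 47.6, 60.2, 134 and 152 CPM in hem nuclei and 69.8, 72.6, 169 and 92.2 CPM in radial glia. *Neurod6* stood at 10.2, 17.9, 69.1 and 23.5 CPM in hem nuclei, lower in both Dnmt1 KO libraries. Of the 12 neuron genes 11 had negative log2 fold changes, with a median of -0.25. Of the 12, 2 had an unadjusted edgeR p under 0.05 and 3 lay below both controls in both Dnmt1 KO libraries. Over all 8992 genes these shares were 4.82% and 17.6%. The summed neuron list overlapped, at 1536, 2156, 2724 and 1920 CPM. The part of either measure in the other genes was not tested.

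A direct test of whether the genotype difference of a gene differed between hem and radial glia called 0 of 15124 genes (0.0%), with 560 at an unadjusted edgeR p under 0.05 and a smallest adjusted p of 0.525. Leaving out 1 library raised the count to 28 without Dnmt1 KO replicate 1, 58 without Dnmt1 KO replicate 2, 277 without control replicate 1 and 53 without control replicate 2. *Wnt8b* had an interaction log2 value of -1.86 (edgeR adjusted p = 1.00) and *Zic4* of -1.54 (edgeR adjusted p = 0.946). The hem levels of both genes overlapped between genotypes. For G2/M genes, singled out above by their genotype median, the median interaction value was 0.79, with 4 of 21 at an unadjusted edgeR p under 0.05. Over all 15124 genes the median was 0.05 and 3.70% had such a p. Nuclei of one library are not replicates, and in all these tests the spread was that between the 4 libraries.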

How the data were processed

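Nuclei of the E16.5 medial cortex were profiled with the Evercode WT kit. The authors made the deposited unfiltered count matrices with Trailmaker, and the submitters' notes name R 4.4.1 and Seurat 5.0.1.9001. The genome build, annotation release and strand setting are not given in the sources used here. The study applied its range of 1500 to 60000 to reads, whereas transcript totals were used here. The members and gene lists were chosen with earlier results of these data known. Raw counts were summed per library and population and tested with edgeR 4.0.16 (TMM, filterByExpr, quasi-likelihood, Benjamini-Hochberg), with DESeq2 1.42.0 as an alternative. Doublets were called with Scrublet in scanpy 1.11.5 at an expected rate of 5%. Hem and radial glia were compared with the library as a block. The 12 largest changes in each direction were named among genes at an adjusted p under 0.05, with 1 direction in all libraries and at least 20 CPM where higher, leaving out predicted genes, and list members were described by list. Shares were compared by exact permutation tests, with all splits enumerated, and given 95% exact binomial intervals (scipy 1.17.1). The fits were tested on simulated data. Other thresholds, normalizations, filters, doublet removal, thinning and libraries left out were tried. Hem sums held 468222 to 1678211 transcripts. The deposited tables held 1127729 barcodes and 56884 genes. Results for some genes are not reported here.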

Additional observations from a re-analysis of the deposited data

How the results depend on the processing

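The excess of hem nuclei in the Dnmt1 KO libraries kept its direction under every alternative run. Its difference was 0.405 to 1.27 points of retained nuclei and 4.75 to 6.49 points of hem and radial glia nuclei when 1 library was left out. After thinning to 5000 transcripts with *Lmx1a* of at least 1 it was 10.5 points of the latter, with a ratio of the means of 1.94, against 2.57 as reported and 1.80 (6.01 points) at that threshold without thinning. The 2648 genes called between hem and radial glia became 1660 to 2804 when 1 library was left out, with the lowest counts without Dnmt1 KO replicate 1 and replicate 2 (1683), and 1062 in the control libraries alone. The other alternatives gave 2541 to 3234. Within the named genes, *Dlx6os1* (-0.29) and *Cntnap5c* (-0.77) lost their call when the hem limits were applied to radial glia, *Dnmt1* (-0.92) lost it in the control libraries alone, and *Adamtsl1*, at 0.32 with no call, was called at -1.20 in the control and at 1.16 in the Dnmt1 KO libraries alone. The 0 genes called between genotypes in hem nuclei became 1 with DESeq2, 133 without the low-count filter and 0 to 504 when 1 library was left out. Of the named genes, 8 gained a genotype call under 1 or more of these settings: *Best3*, *Zfp804b*, *Wnt9a* and *Jhy* without control replicate 1, *Thsd4* without control replicate 2 and without the filter, *Sulf1* and *mt-Rnr2* on leaving out each control in turn and without the filter, and *Adamtsl1* under these and DESeq2. The 0 interactions became 91 without the filter, 13 with the range set on mapped reads, where control replicate 2 kept 9 hem nuclei and left the sums, and 28 to 277 when 1 library was left out. The cause of these changes was not tested. Replicate numbers did not pair the libraries (correlation of deviations 0.072), and a replicate block left the genotype count at 0. With 2 libraries a genotype, 19 to 103 hem nuclei each and 1 control in its own batch, batch and library cannot be fully told apart from genotype.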
